A study of Mus musculus with 20 samples.

Results

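The genes described here drive the passage of a cell from G1 into S phase and copy its DNA. They are 49 genes named for that function and matched exactly to the gene symbols of the array's annotation. Of these, 48 were measured by 116 probe sets that name no other gene, among 45037 probe sets on the array, and Chaf1a was not analysed here. Each gene is represented by 1 probe set, beside 18193 genes treated in the same way. Probe sets without an _s_ or _x_ mark in their name came first, and among these the smallest spread among vehicle animals decided.

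Livers of male mice, 9 weeks old at the start, were profiled on Affymetrix whole-genome mouse arrays with 1 array per animal and 5 animals in each of 4 groups. Wild-type mice (WT, labelled PXR+/+, C57BL/6) and mice without the pregnane X receptor (PXR-KO, labelled PXR-/-) received either the vehicle or CMP013, an inhibitor of the β-secretase BACE1. CMP013 was given by oral gavage at 150 mg/kg every 24 h, and liver was taken at 96 h. PXR is a nuclear receptor that senses foreign compounds and switches on drug-metabolising genes, and no tissue-specific driver is named for its deletion. The knockout mice were of the C57BL/6NTac substrain, so that genotype and substrain cannot be told apart. The values are ratios of each animal to a baseline, the 5 vehicle animals of its own genotype averaged, here on the log2 scale, so 0 is the vehicle level of that genotype. They hold no intensity, which means that neither the loss of PXR, nor liver markers as levels, nor a difference between the vehicle groups could be checked. In bulk liver, a change in the number of cycling cells and a change in RNA per cell cannot be told apart.

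Before a cell enters S phase, pocket proteins such as Rb1 and Rbl1 hold E2F factors at the promoters of replication genes. D-type cyclins with Cdk4 and Cdk6, then cyclin E with Cdk2, phosphorylate the pocket proteins, and E2F target genes are switched on. Origins are licensed in G1, when the origin recognition complex, Cdc6 and Cdt1 load the Mcm2 to Mcm7 ring, which becomes the replicative helicase in S phase. Adult hepatocytes rarely divide, but they can re-enter the cycle after loss of tissue or after exposure to agents that enlarge the liver.

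Because E2F factors are the known regulators of this module, the promoters of its genes were searched for E2F letters. RefSeq promoters on GRCm38.p6, each from 250 bases before to 50 bases after an annotated start, were listed for 38 of the 48 measured members. The entries did not include Ccnd1, Ccnd2, Ccne2, Ccna2, Rb1, Gmnn, Mcm4, Gins1, Gins2 and Pole. The 4 words searched were TTTCCCGC, TTTGGCGC, TTTCGCGC and TTTGCCGC, on both strands, and matches that overlap each other were kept. A match occurred in 17 of 38 members (44.7%) and in 704 of 27025 genes with a listed promoter (2.6%). Counted by promoter, it was held by 17 of 48 member promoters (35.4%) and by 744 of all 32851 promoters of that length (2.26%). Promoters are shown for genes on which the results turn. They are 4 members of the Mcm ring of which 3 rose and 1 fell in WT mice, the factor E2f3, and Uhrf1, the member with the largest rise, and the capitals mark the E2F letters.
Mcm2, chr6:88898731-88899030, - strand: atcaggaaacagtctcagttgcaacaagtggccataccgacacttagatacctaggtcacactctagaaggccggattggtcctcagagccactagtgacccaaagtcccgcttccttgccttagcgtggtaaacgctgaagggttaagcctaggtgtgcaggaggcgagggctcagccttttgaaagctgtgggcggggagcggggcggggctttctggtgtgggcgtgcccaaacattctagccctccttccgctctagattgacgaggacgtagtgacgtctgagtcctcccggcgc
Mcm5, chr8:75109259-75109558, + strand: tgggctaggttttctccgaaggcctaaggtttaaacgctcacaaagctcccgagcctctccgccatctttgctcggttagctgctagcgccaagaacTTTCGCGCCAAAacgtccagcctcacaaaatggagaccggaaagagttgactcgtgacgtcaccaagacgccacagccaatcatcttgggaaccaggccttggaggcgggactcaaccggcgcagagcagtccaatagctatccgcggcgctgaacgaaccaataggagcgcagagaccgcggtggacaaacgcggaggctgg
Mcm6, chr1:128359656-128359955, - strand: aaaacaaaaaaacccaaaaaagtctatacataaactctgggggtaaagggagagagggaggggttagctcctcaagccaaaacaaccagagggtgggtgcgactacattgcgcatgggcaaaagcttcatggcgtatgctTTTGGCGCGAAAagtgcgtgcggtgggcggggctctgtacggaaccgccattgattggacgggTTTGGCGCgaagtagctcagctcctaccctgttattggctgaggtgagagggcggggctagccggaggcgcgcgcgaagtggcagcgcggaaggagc
Mcm7, chr5:138171834-138172133, - strand: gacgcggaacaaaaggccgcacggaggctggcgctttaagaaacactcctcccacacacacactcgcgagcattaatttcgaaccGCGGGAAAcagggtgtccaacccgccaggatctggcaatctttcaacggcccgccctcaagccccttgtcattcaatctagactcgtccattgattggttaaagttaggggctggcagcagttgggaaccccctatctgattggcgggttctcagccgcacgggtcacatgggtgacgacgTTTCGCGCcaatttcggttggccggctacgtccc
E2f3, chr13:29986014-29986313, - strand: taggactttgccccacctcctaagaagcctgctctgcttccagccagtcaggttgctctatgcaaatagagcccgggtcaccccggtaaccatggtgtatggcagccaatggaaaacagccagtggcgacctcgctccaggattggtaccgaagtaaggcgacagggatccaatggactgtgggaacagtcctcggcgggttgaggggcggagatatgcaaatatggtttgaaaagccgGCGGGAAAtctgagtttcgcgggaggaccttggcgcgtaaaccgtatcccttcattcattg
Uhrf1, chr17:56304063-56304362, + strand: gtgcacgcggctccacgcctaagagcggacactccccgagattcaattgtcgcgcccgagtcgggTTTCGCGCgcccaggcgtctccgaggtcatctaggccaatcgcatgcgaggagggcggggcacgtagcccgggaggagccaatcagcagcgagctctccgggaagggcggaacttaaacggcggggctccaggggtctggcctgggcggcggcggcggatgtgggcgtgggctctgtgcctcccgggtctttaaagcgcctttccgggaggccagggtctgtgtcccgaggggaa
The Mcm6 promoter held 3 matches, starting at −110, −106 and −47 relative to the start, the first pair sharing 4 bases. The Mcm5 promoter held a similar overlapping pair at −153 and −149. Mcm7 also held 2 matches, at −165 and +17, although its main probe set fell, and Mcm2, which rose, held none of these letters. The E2f3 match lay at −11, and that of Uhrf1 lay at −185 in the second of its 2 listed promoters. By role, matches were found in 7 of 11 licensing and helicase genes, 4 of 9 polymerase and fork genes, 3 of 6 E2F and pocket protein genes, 1 of 5 cyclin and kinase genes and 0 of 4 genes of nucleotide supply. Of members that rose in WT mice 7 of 10 held a match, of those not called 8 of 23, and of those that fell 2 of 5. These are matches to letters and were not tested as binding sites. A contrasting motif of late cell cycle genes, CHR (TTTGAA or TTCGAA, both strands), was found in 9 of 38 members (23.7%) and 21.7% of all genes, but in 16 of 21 listed G2/M genes (76.2%).

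**Figure D1:**
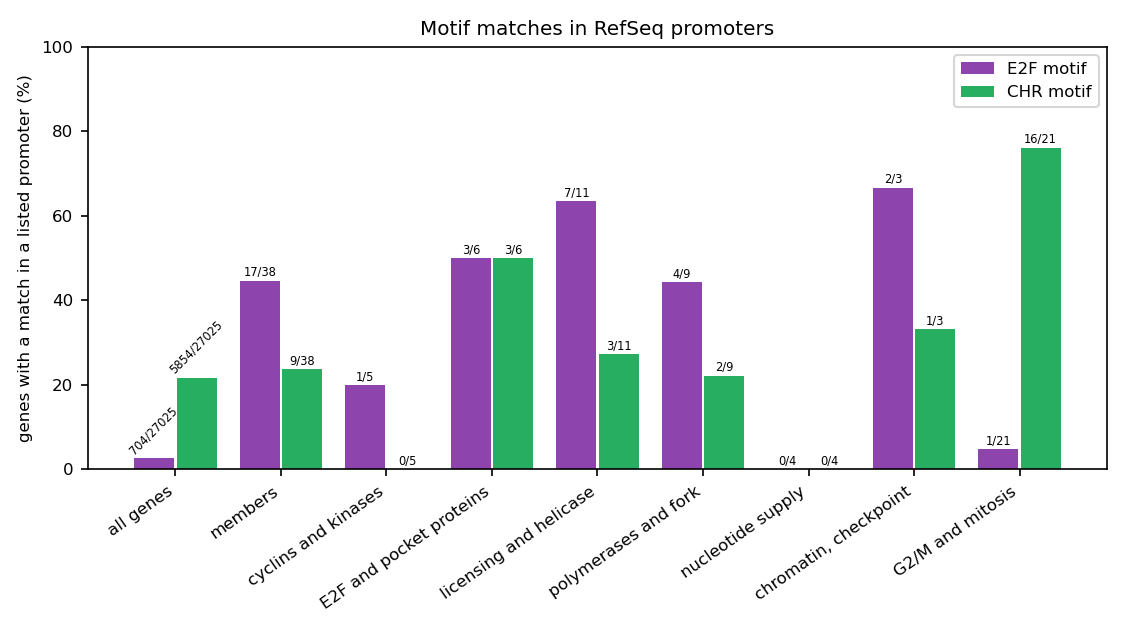
Percent of genes with at least 1 match to the E2F or CHR motif in a listed RefSeq promoter (y axis), for all genes, for all members, for each role group and for G2/M genes; the number over each bar is genes with a match over genes with a listed promoter. E2F matches were in 17 of 38 members against 704 of 27025 genes, and CHR matches in 16 of 21 G2/M genes.

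The vehicle arrays had a standard deviation of their log2 ratios of 0.334 to 0.463 and the treated arrays of 0.468 to 0.704, the highest in WT CMP013 replicate 5. On the second principal component of all probe sets (14.7% of the variance), a pair of WT vehicle animals (replicates 3 and 4) had scores of 49.2 and 52.0 and a pair of PXR-KO vehicle animals (replicates 2 and 4) of 73.3 and 55.3, while the other 16 animals lay between −57.2 and 22.8. Results that depend on these 4 animals are given with and without them. None of the members' values reached the end of the deposited scale, a 100-fold change in either direction. No batch is given in the labels.

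CMP013 raised 15 of the 48 members in WT mice and lowered 5, by limma with an adjusted p under 0.05 over all probe sets. The share that rose was 31.2%, beside a background of 9.72% of all genes called higher, whereas the share that fell was 10.4% beside 7.98% called lower. The median member had a log2 fold change of 0.28, against 0.00 for all genes. In PXR-KO mice none rose and 5 fell, beside backgrounds of 2.5% higher and 2.14% lower. The median member there had a log2 fold change of 0.04, against −0.02 for all genes. At an unadjusted p under 0.05, 4 members were higher and 8 lower in PXR-KO mice, and array weights in limma called 1 higher. Of all 45037 probe sets, 9034 had an unadjusted p under 0.05 in PXR-KO mice, in either direction. The difference between the 2 responses, tested in 1 model, was called in 9 members, each with the larger value in WT (18.8%, beside 7.39% of genes called higher and 6.22% lower). At an unadjusted p under 0.05, 16 members had a larger value in WT and 3 a smaller one, and array weights called 1 member smaller. For the difference, 11312 of all 45037 probe sets had an unadjusted p under 0.05, in either direction.

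Without the 4 vehicle animals named above the counts became 13 in WT, 0 in PXR-KO and 4 for the difference, with 22 and 6, 3 and 7, and 15 and 1 members higher and lower at an unadjusted p under 0.05. Ccna2, E2f3, E2f6 and Mcm2 kept the difference. With quantile normalization 8 WT calls were kept (Ccnd1, Ccna2, E2f3, E2f6, Gmnn, Mcm2, Mcm6 and Uhrf1), 1 in PXR-KO mice (Rfc5) and 3 for the difference (Ccna2, E2f3 and E2f6). Leaving out those 4 also lowers the number of vehicle animals in the fits. With each animal left out in turn, the WT count was 15 to 21, the PXR-KO count 1 to 5 and the difference count 8 to 11. In PXR-KO mice only 1 member was called when vehicle replicate 5 or CMP013 replicate 4 was left out, and 2 or 3 without any of the vehicle replicates 1 to 4 or the CMP013 replicates 1 and 2. The share of all genes under these other settings is not given, so these counts have no background. Whether members lost calls more than other genes did is therefore unknown.

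**Figure D2:**
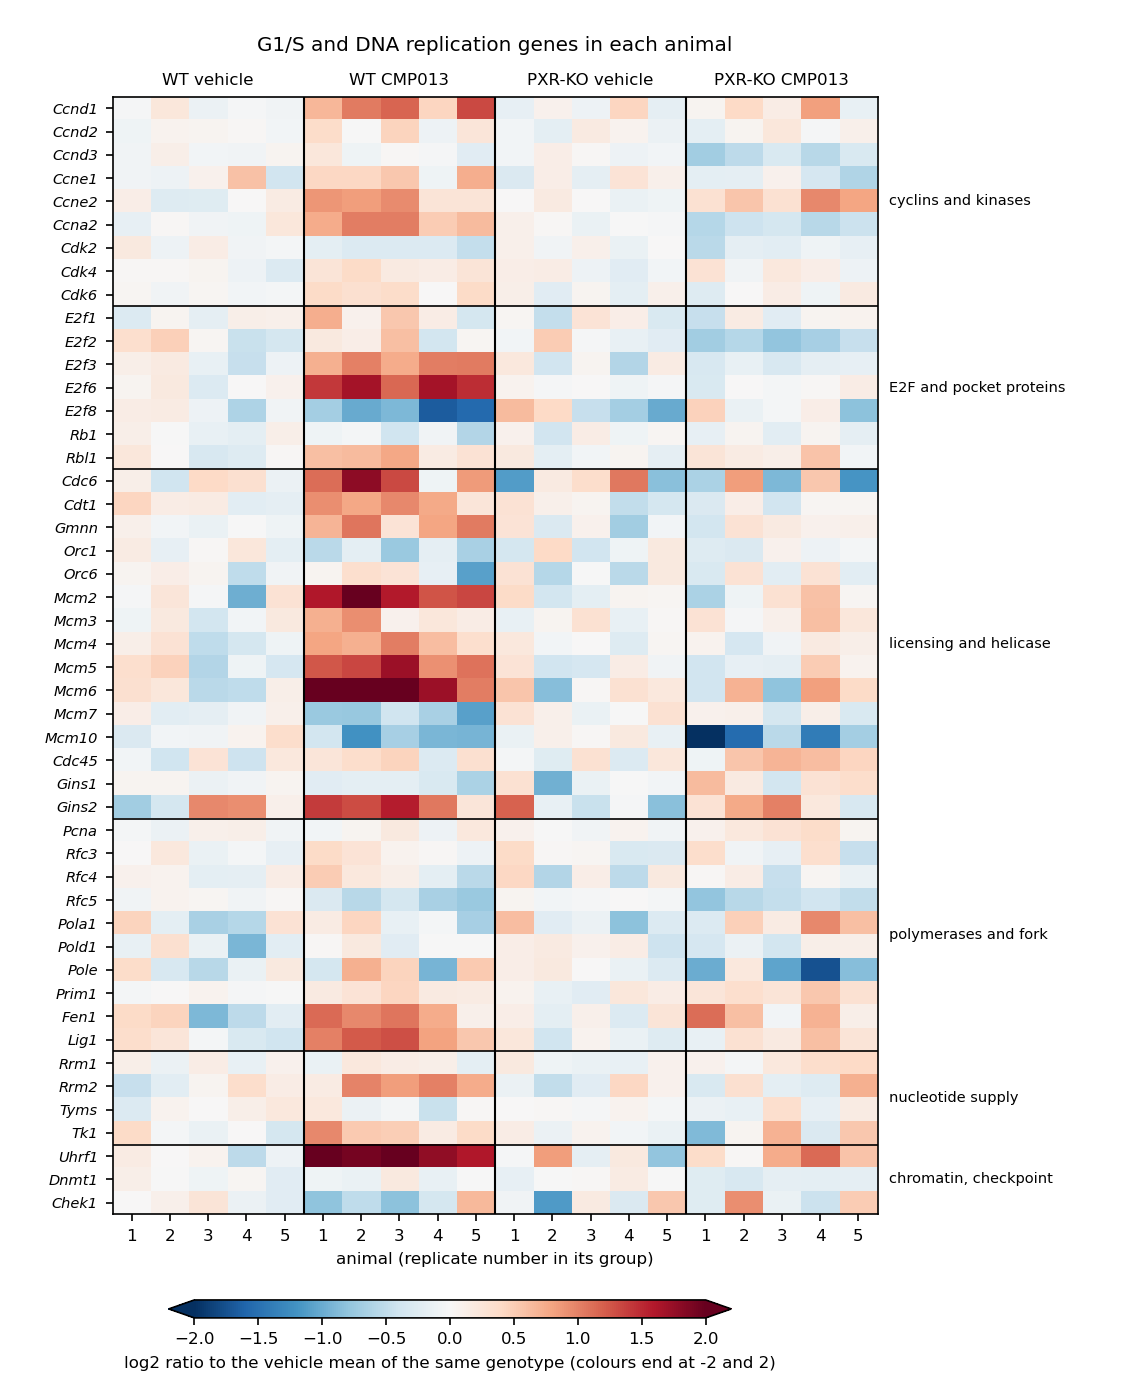
Log2 ratio to the vehicle mean of the same genotype (colour, ending at −2 and 2) for the 48 measured members (rows, by role) in the 20 animals (columns, by group). Mcm2, Mcm6, E2f6 and Uhrf1 are deep red in the 5 WT CMP013 animals and paler or blue in the PXR-KO CMP013 animals, while Rfc5 and Mcm10 are blue in both treated groups.

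Vehicle and CMP013 animals did not overlap in 20 of 48 members in WT mice (14 higher and 6 lower), beside 19.3% of all genes, and in 8 members in PXR-KO mice (2 higher and 6 lower), beside 9.89%. In WT mice all 5 treated animals were more than 25% above the vehicle mean in 10 members and more than 20% below it in 3. In PXR-KO mice the numbers were 0 and 4. The share of all genes that meets these fold limits was not counted, so these numbers have no background beside them. Among the 15 members that rose in WT mice, the median log2 ratio of the treated animals was 0.88, 1.04, 1.02, 0.81 and 1.02 for replicates 1 to 5. Replicate 3 was the highest animal in 8 of the 15, and replicates 5 and 4 were the lowest in 6 and 5. The same 15 genes had medians of −0.30, 0.13, −0.04, 0.51 and 0.11 in the treated PXR-KO animals, so that PXR-KO CMP013 replicates 1 and 4 lay at opposite ends. These 15 were picked by their rise in the WT animals, so the larger WT medians follow from the choice and compare no responses.

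**Figure D3:**
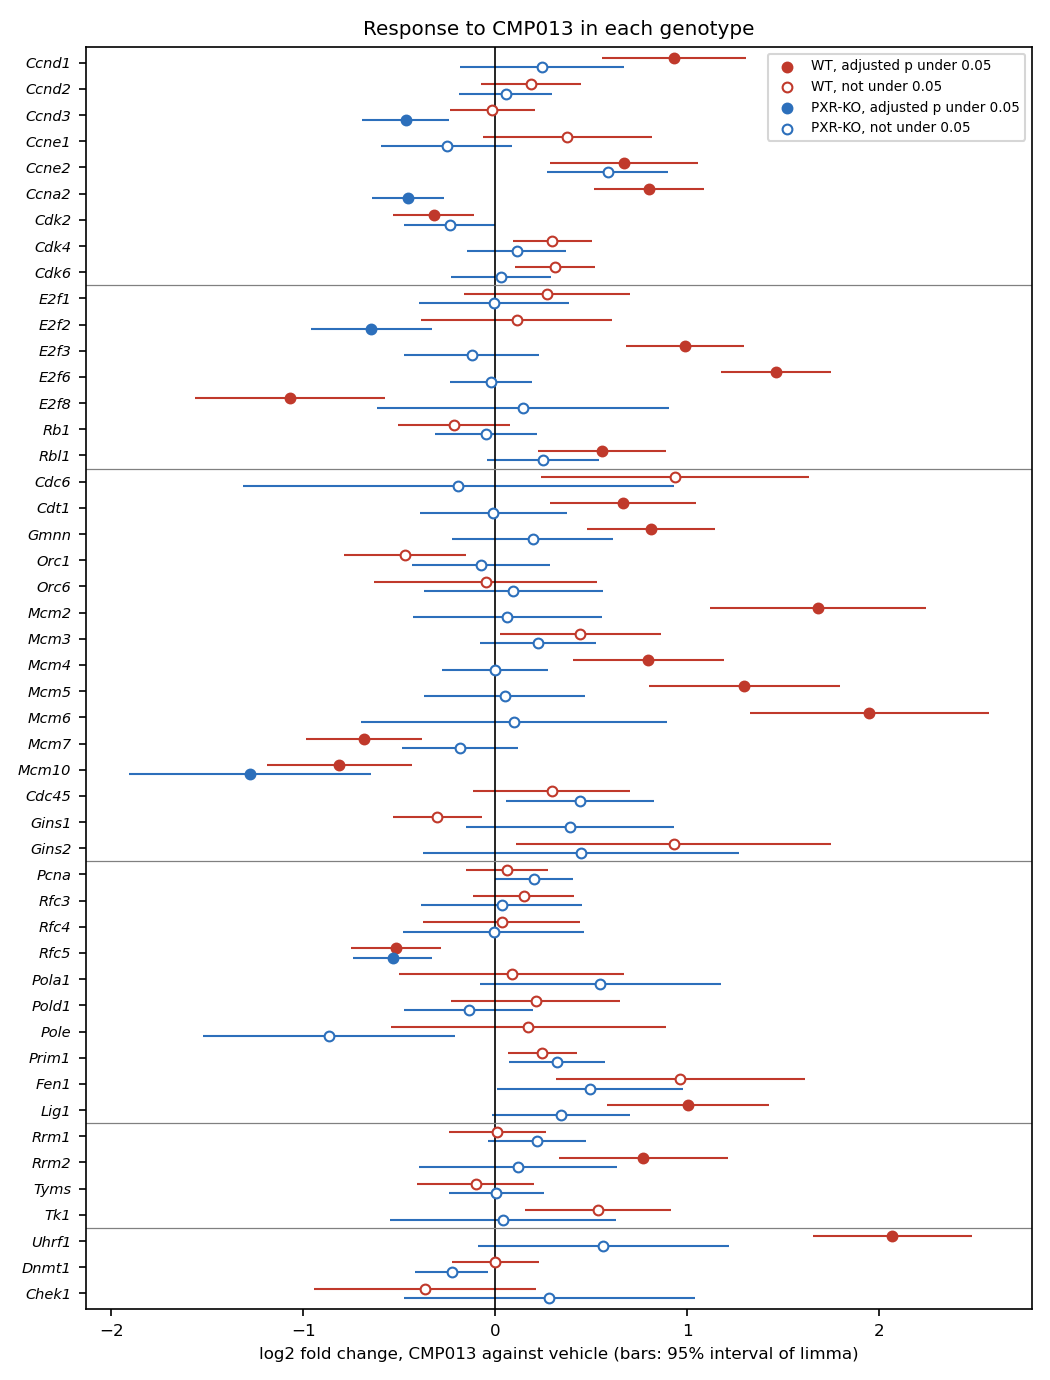
Log2 fold change of CMP013 against vehicle (x axis) with its 95% interval from limma, in WT (red) and PXR-KO mice (blue), for the 48 measured members by role; filled points have an adjusted p under 0.05. In WT the 15 members that rose run from Rbl1 to Uhrf1, and no filled blue point lies above 0.

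Of the cyclins and their kinases, 3 of 9 rose in WT mice (Ccnd1, Ccne2 and Ccna2) and 1 fell (Cdk2), and in PXR-KO mice 2 fell (Ccna2 and Ccnd3). Ccnd1, cyclin D1, which couples growth signals to Cdk4 and Cdk6, had log2 ratios of 0.66, 1.04, 1.17, 0.43 and 1.31 in the treated WT animals and of −0.03, 0.22, −0.12, −0.03 and −0.08 in their vehicle animals. Every treated WT animal lay above every vehicle animal, and the fold change was 1.90 (log2 fold change 0.93, SE 0.17, adjusted p = 0.0055). In PXR-KO mice the treated animals had 0.06, 0.39, 0.15, 0.83 and −0.15 and the vehicle animals −0.16, 0.09, −0.11, 0.43 and −0.19. These groups overlapped (log2 fold change 0.24, SE 0.19, adjusted p = 0.52). The difference between the genotypes was 0.69 with a 95% interval of 0.14 to 1.24 and did not pass the test (adjusted p = 0.10). It passed without WT CMP013 replicate 4 or without PXR-KO CMP013 replicate 4, with adjusted p-values of 0.0381 to 0.178 over the 20 fits that left out 1 animal. The second Ccnd1 probe set rose in WT mice by 1.04 and the third had 1.46 with an adjusted p of 0.059.

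Ccna2, cyclin A2, which acts with Cdk2 in S phase, was the one member called in opposite directions. The treated WT animals had log2 ratios of 0.74, 1.02, 1.02, 0.50 and 0.64, and the vehicle animals −0.17, 0.02, −0.06, −0.09 and 0.23. The treated PXR-KO animals had −0.56, −0.42, −0.35, −0.56 and −0.43 against 0.10, 0.02, −0.14, −0.01 and −0.02. Neither pair of groups overlapped, with all 5 treated animals above vehicle in WT and all 5 below it in PXR-KO mice. Ccna2 rose 1.74-fold in WT mice (log2 fold change 0.80, SE 0.13, adjusted p = 0.0029) and fell by 0.45 on the log2 scale in PXR-KO mice (SE 0.08, adjusted p = 0.0201). The difference of 1.252 (SE 0.15) had an adjusted p of 2.8e-05. The fall in PXR-KO mice was not called without PXR-KO vehicle replicate 5 or PXR-KO CMP013 replicate 4 (adjusted p 0.0243 to 0.063 over 10 fits) or without the 4 vehicle animals (−0.44, adjusted p = 0.103). Nor was it called with quantile normalization (adjusted p = 0.0761), the replicate block (0.152) or trend and robust variances (0.0771). The other Ccna2 probe set rose by 1.35 in WT mice (adjusted p = 0.0019). In PXR-KO mice that probe set had −0.56, overlapped vehicle and was not called (adjusted p = 0.186). The rise in WT and the difference were called in every fit run, and were 0.76 (adjusted p = 0.0322) and 1.20 (adjusted p = 0.0024) without the 4 vehicle animals and 0.64 (adjusted p = 0.0371) and 1.02 (adjusted p = 0.0015) with quantile normalization.

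Ccne2, cyclin E2, had log2 ratios of 0.88, 0.83, 0.94, 0.26 and 0.25 in the treated WT animals against 0.14, −0.25, −0.24, 0.01 and 0.17, and of 0.30, 0.56, 0.30, 0.96 and 0.79 in the treated PXR-KO animals against 0.01, 0.18, 0.02, −0.14 and −0.09. Treated and vehicle animals did not overlap in either genotype. The log2 fold changes were 0.67 in WT (SE 0.17, adjusted p = 0.028) and 0.58 in PXR-KO mice (SE 0.14, adjusted p = 0.053). The difference was 0.08 with a 95% interval of −0.39 to 0.56. The WT call was lost in 6 of 10 fits without 1 animal, namely WT vehicle replicates 2, 3 and 4 and WT CMP013 replicates 1, 2 and 3 (adjusted p 0.0176 to 0.0683), and without the 4 vehicle animals (0.62, adjusted p = 0.128). In PXR-KO mice it was called without PXR-KO CMP013 replicate 3, with adjusted p-values of 0.0413 to 0.113 over 10 fits. Its PXR-KO rise was also called with array weights, with all 4 groups in 1 fit and with probe sets averaged per gene. Over the 10 other settings its adjusted p was 0.0274 to 0.186.

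Ccnd3, cyclin D3, had log2 ratios of −0.70, −0.53, −0.30, −0.55 and −0.31 in the treated PXR-KO animals against −0.05, 0.13, 0.02, −0.10 and −0.06. In the treated WT animals it had 0.23, −0.09, 0.03, −0.03 and −0.23 against −0.08, 0.12, −0.05, −0.07 and 0.06. All 5 treated PXR-KO animals lay below vehicle, while the WT groups overlapped. It fell by 0.47 on the log2 scale in PXR-KO mice (SE 0.10, adjusted p = 0.0374), and the difference was 0.45 (adjusted p = 0.038). Another Ccnd3 probe set went the opposite way, with a log2 fold change of 0.90 in PXR-KO mice (adjusted p = 0.0412) and a difference of −1.46 (adjusted p = 0.0089), so the direction of Ccnd3 depends on the probe set. The call of the first probe set was lost without any 1 of 8 PXR-KO animals, all but CMP013 replicates 3 and 5 (adjusted p 0.0337 to 0.101), and the difference in 11 of 20 such fits (0.0208 to 0.0692), and neither held without the 4 vehicle animals (adjusted p = 0.135 and 0.194). The kinase Cdk2 fell by 0.32 in WT mice (adjusted p = 0.0487), a call that was lost with any 1 of the 10 WT animals left out (0.053 to 0.113) and without the 4 vehicle animals (0.152). Cdk4 had a log2 fold change of 0.30 (adjusted p = 0.060) and Cdk6 of 0.31 (adjusted p = 0.053) in WT mice, while Ccne1 and Ccnd2 had 0.38 and 0.19 and did not pass the test. Each of these 4 genes has another probe set that rose in WT mice, by 0.35 for Cdk4 (adjusted p = 0.044), 0.57 for Cdk6 (adjusted p = 0.0106), 0.51 for Ccne1 (adjusted p = 0.0163) and 0.42 for Ccnd2 (adjusted p = 0.032). That of Ccne1 also differed between the genotypes, by 0.76 (adjusted p = 0.0044).

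Among the E2F factors and pocket proteins 3 of 7 rose in WT mice (E2f3, E2f6 and Rbl1) and 1 fell (E2f8), and in PXR-KO mice E2f2 fell. E2f6, an E2F protein that represses its targets and does not bind pocket proteins, had log2 ratios of 1.41, 1.67, 1.14, 1.67 and 1.48 in the treated WT animals and of 0.05, 0.19, −0.27, 0.00 and 0.09 in vehicle animals. In PXR-KO mice the treated animals had −0.30, 0.00, −0.04, 0.03 and 0.15 and the vehicle animals 0.07, −0.02, 0.01, −0.08 and −0.02. All treated WT animals stood well clear of vehicle, and the PXR-KO groups overlapped. The change was 2.75-fold in WT mice (log2 fold change 1.46, SE 0.13, adjusted p = 1.1e-04) and 0.98-fold in PXR-KO mice (95% interval of the log2 fold change −0.24 to 0.19). The difference of 1.49 (SE 0.15, adjusted p = 7.7e-06) had the smallest adjusted p of the 48 members, and both probe sets of E2f6 rose in WT mice.

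E2f3, an activator of S phase genes, had log2 ratios of 0.70, 1.01, 0.74, 1.03 and 1.04 in the treated WT animals against 0.12, 0.18, −0.14, −0.47 and −0.10. In PXR-KO mice it had −0.32, −0.16, −0.32, −0.18 and −0.17 against 0.21, −0.38, 0.06, −0.58 and 0.17. The WT groups did not overlap and the PXR-KO groups did. E2f3 rose 1.98-fold in WT mice (log2 fold change 0.99, SE 0.14, adjusted p = 0.0014) and its log2 fold change was −0.12 in PXR-KO mice (SE 0.16, adjusted p = 0.71). The difference of 1.11 (SE 0.21) had an adjusted p of 0.0021. The calls of E2f3 and E2f6 in WT mice and in the difference held in every fit run, and without the 4 vehicle animals the differences were 1.21 (adjusted p = 5.5e-04) and 1.42 (adjusted p = 6.0e-04). The related activator E2f1 had log2 ratios of 0.73, 0.08, 0.54, 0.16 and −0.35 in the treated WT animals against −0.27, 0.06, −0.19, 0.11 and 0.11, and of −0.47, 0.17, −0.23, 0.06 and 0.07 against 0.04, −0.48, 0.27, 0.13 and −0.31 in PXR-KO mice. Its groups overlapped in both genotypes (log2 fold changes 0.27 and −0.01, adjusted p = 0.42 and 0.99). Over the 3 E2f1 probe sets the log2 fold changes in WT mice ran from −0.64 to 0.27, and none was called.

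E2f8, a repressor of the late S phase that acts without a dimerisation partner, had log2 ratios of −0.68, −1.01, −0.90, −1.67 and −1.56 in the treated WT animals against 0.15, 0.17, −0.10, −0.62 and −0.08. In PXR-KO mice the treated animals had 0.46, −0.13, −0.04, 0.14 and −0.81 and the vehicle animals 0.63, 0.40, −0.47, −0.69 and −1.01, the widest vehicle spread among the named members. The WT groups did not overlap, and E2f8 fell by 1.07 on the log2 scale (SE 0.22, adjusted p = 0.0108). That call was lost with quantile normalization (−0.86, adjusted p = 0.064) and with its probe sets averaged (−1.07, adjusted p = 0.054), and its second probe set had −1.07 with an adjusted p of 0.21. The difference was −1.22 with a 95% interval of −2.11 to −0.32 and an adjusted p of 0.077, and it passed without PXR-KO vehicle replicate 1 or PXR-KO CMP013 replicate 5 (0.0306 to 0.132 over 20 fits), with array weights (0.0489) and with the replicate block (0.0244). Rbl1, the pocket protein p107, had log2 ratios of 0.61, 0.63, 0.77, 0.17 and 0.29 in the treated WT animals against 0.23, 0.00, −0.31, −0.25 and 0.02, and of 0.26, 0.17, 0.12, 0.58 and −0.05 in the treated PXR-KO animals against 0.20, −0.19, −0.05, 0.06 and −0.19. WT CMP013 replicate 4 lay below WT vehicle replicate 1, so the groups overlapped. The log2 fold changes were 0.56 in WT (SE 0.15, adjusted p = 0.033), and in the treated PXR-KO animals 0.25 (adjusted p = 0.32). The WT call was lost in 7 of 10 fits without 1 animal, those without WT vehicle replicates 2 to 5 or WT CMP013 replicates 1 to 3 (0.0237 to 0.0789), and without the 4 vehicle animals (0.41, adjusted p = 0.176), and the other 3 Rbl1 probe sets had values of −0.31 to −0.11. E2f2 fell by 0.65 in PXR-KO mice (adjusted p = 0.0382), a call lost without any 1 of 8 of the 10 animals (all but PXR-KO vehicle replicate 2 and CMP013 replicate 5, 0.0344 to 0.0967) and without the 4 vehicle animals (0.075), and Rb1 itself had −0.22 in WT mice, with −0.05 in PXR-KO mice, and did not pass the test.

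Of the origin licensing and helicase genes, 6 of 15 rose (40%) and 2 fell in WT mice, with a median log2 fold change of 0.66, beside 3 of 7 (42.9%) and 1 among the E2F factors and pocket proteins. In PXR-KO mice 0 were higher, 1 was lower and the median was 0.06. Within the Mcm ring, Mcm2, Mcm4, Mcm5 and Mcm6 rose and Mcm7 fell in WT mice, and the median of the 6 subunits was 1.05 in WT mice, with 0.06 in PXR-KO mice. The same 4 subunits were called in the difference. Mcm6 had log2 ratios of 2.16, 2.03, 2.45, 1.71 and 1.02 in the treated WT animals against 0.32, 0.23, −0.54, −0.51 and 0.12, and of −0.38, 0.70, −0.81, 0.82 and 0.39 in the treated PXR-KO animals against 0.55, −0.85, 0.02, 0.31 and 0.22. Mcm2 had 1.60, 2.10, 1.59, 1.26 and 1.34 against −0.03, 0.24, −0.03, −0.98 and 0.29 in WT, and −0.63, −0.08, 0.30, 0.58 and 0.04 against 0.38, −0.36, −0.20, 0.05 and 0.04 in PXR-KO mice. Mcm5 had 1.247, 1.342, 1.708, 0.907 and 1.088 against 0.34, 0.47, −0.58, −0.08 and −0.33 in WT, and −0.39, −0.16, −0.17, 0.51 and 0.07 against 0.27, −0.38, −0.34, 0.15 and −0.07 in PXR-KO mice. For all 3 subunits every treated WT animal lay above every WT vehicle animal, and the PXR-KO groups overlapped.

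The rise in WT mice was 3.86-fold for Mcm6 (log2 fold change 1.95, SE 0.28, adjusted p = 0.0016), 3.21-fold for Mcm2 (1.68, SE 0.25, adjusted p = 0.0020) and 2.46-fold for Mcm5 (1.30, SE 0.22, adjusted p = 0.0041). Mcm4 rose 1.74-fold (0.80, SE 0.18, adjusted p = 0.014). In PXR-KO mice the log2 fold changes of these 4 genes were 0.10, 0.06, 0.05 and 0.00, and the widest of their 95% intervals, that of Mcm6, ran from −0.70 to 0.89. The differences were 1.85 for Mcm6 (adjusted p = 0.017), 1.62 for Mcm2 (adjusted p = 0.0053), 1.249 for Mcm5 (adjusted p = 0.0115) and 0.80 for Mcm4 (adjusted p = 0.024). All 8 of these calls held with each animal left out. With quantile normalization none of the 4 differences passed the test (adjusted p = 0.10, 0.07, 0.188 and 0.19), nor did the rises of Mcm5 (0.083) and Mcm4 (0.132) in WT mice. Without the 4 vehicle animals the differences were 1.77, 1.44, 1.08 and 0.67, and of these only that of Mcm2 passed the test (adjusted p = 0.058, 0.0264, 0.077 and 0.086). The rises of Mcm6, Mcm2 and Mcm5 in WT mice were then still called (adjusted p = 0.0169, 0.0075 and 0.0307) and that of Mcm4 was not (0.58, adjusted p = 0.080).

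Mcm7 and Mcm10 did not follow the other Mcm genes, and their values for single animals are given because they were seen to differ. Mcm7, a ring subunit, had log2 ratios of −0.75, −0.76, −0.39, −0.65 and −1.09 in the treated WT animals against 0.14, −0.20, −0.18, −0.07 and 0.10, without overlap. It fell by 0.68 (SE 0.13, adjusted p = 0.0083), but its other 3 probe sets had −0.36 to −0.19 and did not pass the test. In PXR-KO mice Mcm7 had 0.09, 0.10, −0.34, 0.11 and −0.30 against 0.29, 0.10, −0.13, 0.00 and 0.31, which overlapped (log2 fold change −0.18, adjusted p = 0.49). Mcm10, which helps to activate the loaded helicase and is not a ring subunit, had −0.37, −1.20, −0.66, −0.91 and −0.93 against −0.30, −0.05, −0.08, 0.07 and 0.35 in WT, and −2.20, −1.54, −0.53, −1.41 and −0.69 against −0.14, 0.10, 0.03, 0.20 and −0.15 in PXR-KO mice. It lay below vehicle without overlap in both genotypes and fell by 0.81 in WT (SE 0.17, adjusted p = 0.0108) and by 1.28 in PXR-KO mice (SE 0.28, adjusted p = 0.0386). The difference of 0.47 (95% interval −0.25 to 1.19) did not pass the test. Of the 3 Mcm10 probe sets 2 fell in WT mice and 1 in PXR-KO mice. They ran from −0.94 to 0.12 in WT and from −1.28 to 0.06 in PXR-KO mice. Neither fall was called with quantile normalization (adjusted p = 0.113 in WT, 0.0662 in PXR-KO mice) or with the replicate block (0.0663 and 0.12). The WT call was also lost with the probe sets averaged. The PXR-KO call of Mcm10 was lost in 7 of 10 fits without 1 animal, those without any vehicle animal or CMP013 replicate 2 or 4 (0.0219 to 0.10), and both Mcm10 calls were lost without the 4 vehicle animals (adjusted p = 0.062 for WT, 0.171 for PXR-KO mice).

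Gmnn, geminin, which blocks Cdt1 from loading the helicase again in S phase, had log2 ratios of 0.69, 1.07, 0.27, 0.79 and 1.05 in the treated WT animals against 0.10, −0.06, −0.14, −0.01 and −0.09. In PXR-KO mice it had −0.37, 0.29, 0.18, 0.09 and 0.11 against 0.27, −0.29, 0.09, −0.69 and −0.06. The WT groups did not overlap, and Gmnn rose 1.75-fold (log2 fold change 0.81, SE 0.15, adjusted p = 0.0061). The PXR-KO groups overlapped (0.19, adjusted p = 0.61), and the difference of 0.62 had an adjusted p of 0.12, passing without WT CMP013 replicate 3 or PXR-KO vehicle replicate 4 (0.0406 to 0.201 over 20 fits). Its partner Cdt1 rose 1.58-fold in WT mice (0.66, adjusted p = 0.028). That call was lost in 7 of 10 fits without 1 animal, WT vehicle replicates 3 to 5 or WT CMP013 replicates 1 to 4 (0.0085 to 0.0654), and without the 4 vehicle animals (0.120). The loader Cdc6 had a log2 fold change of 0.93 in WT mice (SE 0.31, adjusted p = 0.077). Orc1, the largest subunit of the origin recognition complex, had −0.47 (adjusted p = 0.055) with the probe set used. Its other probe set had 0.56 and was not called, so the direction of Orc1 depends on the probe set. Orc6, Mcm3, Cdc45, Gins1 and Gins2 did not pass the test in any comparison with the probe sets used.

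**Figure D4:**
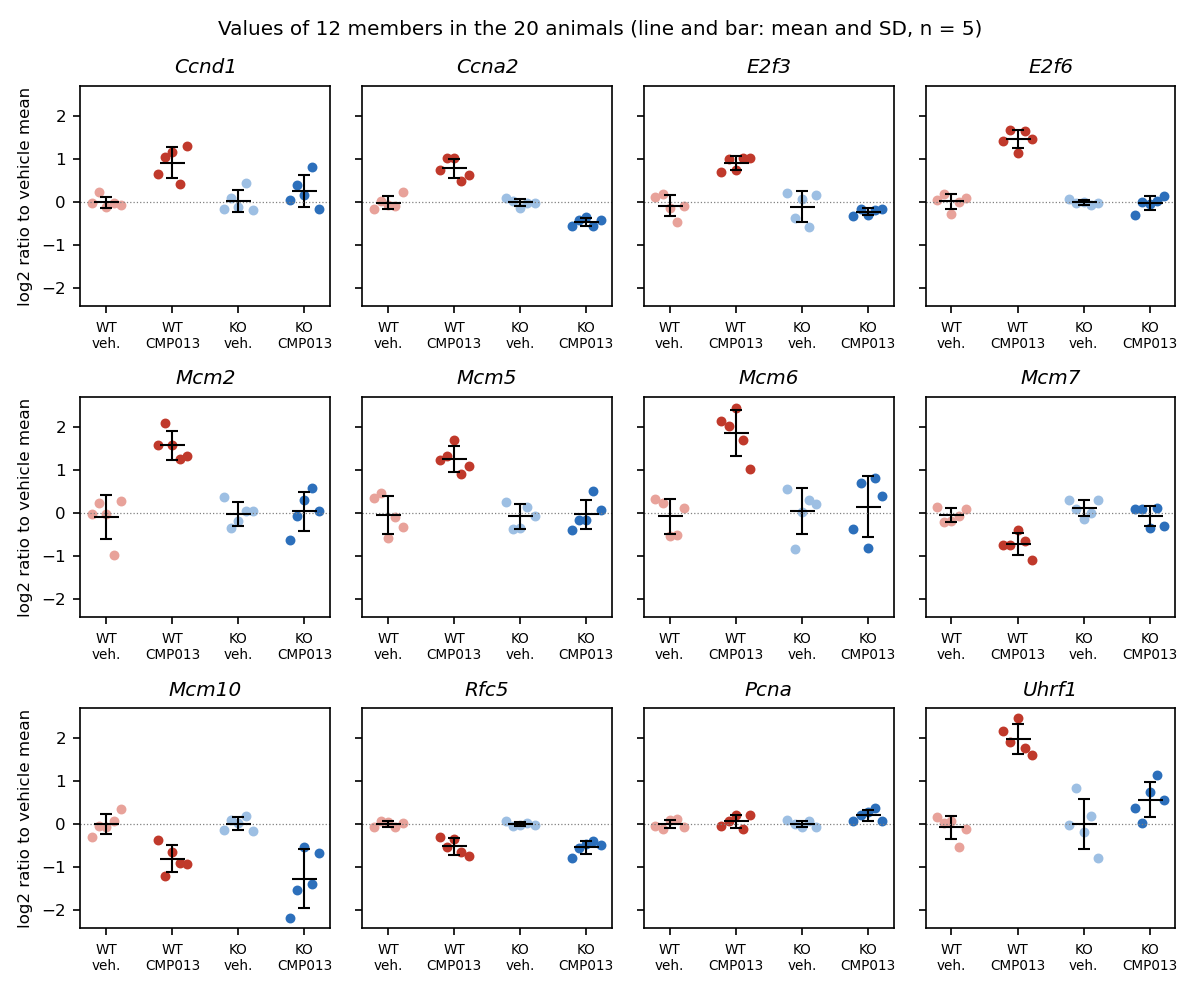
Log2 ratio to the vehicle mean of the same genotype (y axis) in each of the 5 animals of the 4 groups (points), with mean and SD (line and bar), for 12 members. E2f6, Mcm2, Mcm5, Mcm6 and Uhrf1 separate the treated WT animals from all vehicle animals, Ccna2 moves in opposite directions in the 2 genotypes, Rfc5 and Mcm10 are lower in both treated groups, and Pcna lies between −0.11 and 0.37 in all 20 animals.

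Of the polymerases, the sliding clamp, its loader and the other fork enzymes, 1 of 10 rose (Lig1) and 1 fell (Rfc5) in WT mice, close to the shares of all genes called (9.72% and 7.98%). Their median log2 fold change was 0.16, and in PXR-KO mice Rfc5 alone fell. No member of this group was called in the difference, where at most 1.04 was measured (Pole, adjusted p = 0.16). Pcna, the sliding clamp, had log2 ratios of −0.06, 0.06, 0.20, −0.11 and 0.21 in the treated WT animals against −0.04, −0.11, 0.10, 0.12 and −0.06, and of 0.08, 0.20, 0.29, 0.37 and 0.06 in the treated PXR-KO animals against 0.08, 0.00, −0.07, 0.07 and −0.08. The groups overlapped in both genotypes. Its log2 fold changes were 0.06 in WT (95% interval −0.15 to 0.27, adjusted p = 0.75) and 0.20 in PXR-KO mice (0.00 to 0.40, adjusted p = 0.25), so a rise as large as that of the Mcm2, Mcm5 or Mcm6 genes lies outside both intervals.

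Rfc5, a subunit of the clamp loader, had log2 ratios of −0.29, −0.55, −0.35, −0.65 and −0.75 in the treated WT animals against −0.06, 0.08, 0.04, −0.08 and 0.02. In PXR-KO mice it had −0.80, −0.56, −0.48, −0.39 and −0.49 against 0.06, −0.05, −0.03, 0.01 and −0.03. The treated animals lay below vehicle without overlap in both genotypes. Rfc5 fell by 0.52 in WT (SE 0.10, adjusted p = 0.0094) and by 0.53 in PXR-KO mice (SE 0.09, adjusted p = 0.0152), and the difference was 0.02 with a 95% interval of −0.26 to 0.29. Both calls held with each animal left out, and both were lost without the 4 vehicle animals at nearly the same sizes (−0.53, adjusted p = 0.054, and −0.54, adjusted p = 0.079). The other loader subunits, Rfc3 and Rfc4, had 0.15 and 0.03 in WT mice and did not pass the test.

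Lig1, the ligase that seals Okazaki fragments, had log2 ratios of 1.01, 1.23, 1.28, 0.81 and 0.55 in the treated WT animals against 0.36, 0.24, −0.04, −0.30 and −0.40, and of −0.16, 0.31, 0.19, 0.61 and 0.27 in the treated PXR-KO animals against 0.22, −0.39, 0.08, −0.14 and −0.26. The WT groups did not overlap and the PXR-KO groups did. Lig1 rose 2.01-fold in WT mice (log2 fold change 1.00, SE 0.19, adjusted p = 0.0068), which was 0.91 with an adjusted p of 0.054 without the 4 vehicle animals. In PXR-KO mice it had 0.34 (adjusted p = 0.27), and the difference of 0.66 did not pass the test (adjusted p = 0.10). Fen1, the flap endonuclease that acts just before Lig1, had 0.96 in WT mice (SE 0.29, adjusted p = 0.053), with 0.49 in the PXR-KO animals (adjusted p = 0.24). The polymerase and primase subunits Pola1, Pold1, Pole and Prim1 had log2 fold changes of 0.08 to 0.24 in WT mice, and none passed the test.

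For nucleotide supply, 1 of 4 genes rose in WT mice and none was called in PXR-KO mice or in the difference. Rrm2, the regulated subunit of ribonucleotide reductase, had log2 ratios of 0.17, 1.00, 0.83, 1.00 and 0.74 in the treated WT animals against −0.46, −0.22, 0.06, 0.36 and 0.15, and of −0.30, 0.32, −0.20, −0.26 and 0.72 in the treated PXR-KO animals against −0.12, −0.49, −0.22, 0.41 and 0.09. WT CMP013 replicate 1 fell within the vehicle range, and the PXR-KO groups overlapped. Rrm2 rose 1.71-fold in WT mice (log2 fold change 0.77, SE 0.20, adjusted p = 0.0275), and the log2 fold change in PXR-KO mice was 0.12 (adjusted p = 0.82). The WT call was lost in 6 of 10 fits without 1 animal, WT vehicle replicates 1 to 3 or WT CMP013 replicates 2 to 4 (0.0089 to 0.0636). Its partner subunit Rrm1 had 0.01, thymidylate synthase Tyms −0.10 and thymidine kinase Tk1 0.53 in WT mice (adjusted p = 0.97, 0.69 and 0.065). The 4 Tyms probe sets ran from −0.70 to 0.93 in WT mice and none was called, so its direction depends on the probe set.

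Uhrf1, which reads hemimethylated DNA behind the fork and brings in the methyltransferase Dnmt1, rose the most of all members. The treated WT animals had log2 ratios of 2.18, 1.91, 2.48, 1.77 and 1.61 against 0.17, 0.01, 0.06, −0.53 and −0.11. The treated PXR-KO animals had 0.37, 0.03, 0.74, 1.14 and 0.57 against −0.03, 0.83, −0.19, 0.20 and −0.79. The WT groups did not overlap, and although 4 of 5 treated PXR-KO animals were more than 25% above the vehicle mean, PXR-KO vehicle replicate 2 was higher than 4 of the 5. The change was 4.19-fold in WT mice (log2 fold change 2.07, SE 0.19, adjusted p = 1.2e-04) and 1.48-fold in PXR-KO mice (0.56, SE 0.29, adjusted p = 0.32). The difference of 1.504 (SE 0.36, adjusted p = 0.0112) held with each animal left out and was 1.06 (adjusted p = 0.096) without the 4 vehicle animals. With quantile normalization the difference was 1.06 (adjusted p = 0.197). The second Uhrf1 probe set had 1.49 in WT mice and was called neither there nor in the difference. Dnmt1 itself had 0.00 in WT mice (95% interval −0.23 to 0.22) and −0.23 in PXR-KO mice (adjusted p = 0.17) with the probe set used. Over the 3 Dnmt1 probe sets the log2 fold change in WT mice reached 0.77, and none was called.

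Chek1, the kinase of the replication checkpoint, showed how far the probe set can set the result. The probe set used had the least vehicle spread of those without an _s_ or _x_ mark. Its log2 fold change was −0.37 in WT mice (adjusted p = 0.41). Of the other 4 probe sets 2 rose, by 1.56 (adjusted p = 2.7e-04) and 1.15 (adjusted p = 0.0136), and the latter carries the _s_ mark. These 2 also differed between the genotypes, by 1.51 (adjusted p = 0.031) and 1.27 (adjusted p = 0.019). Over all members, 39 of 48 had more than 1 probe set, and of the 116 probe sets 32 rose and 6 fell in WT mice, 1 rose and 5 fell in PXR-KO mice, and 19 were higher and 1 lower in the difference. Of all 45037 probe sets, 6480 were called in WT mice, 1645 in PXR-KO mice and 4936 in the difference, in either direction. In 7 members, Ccnd2, Ccne1, Cdk4, Cdk6, Chek1, Mcm3 (0.79, adjusted p = 0.0056) and Cdc45 (0.70, adjusted p = 0.026), another probe set was called in WT mice and the chosen one was not. The second Cdc45 probe set also gave a difference of 1.62 (adjusted p = 0.0053). No member had probe sets called in opposite directions in WT mice.

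**Figure D5:**
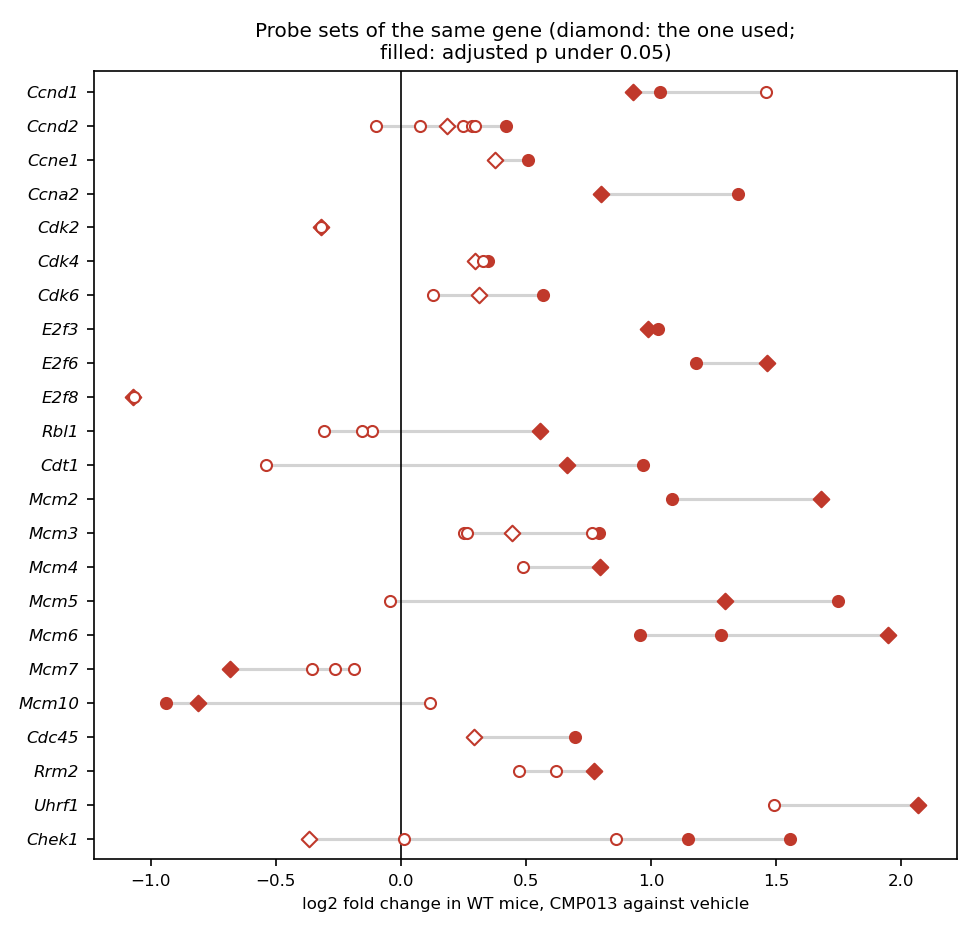
Log2 fold change in WT mice (x axis) of every probe set of the members (rows) that have more than 1 probe set and at least 1 called; diamonds are the probe sets used, circles the others, and filled symbols have an adjusted p under 0.05. The probe sets of E2f3 and E2f6 lie close together, while those of Chek1 run from −0.37 to 1.56. Those of Ccnd2, Cdt1, Mcm5, Mcm10 and Rbl1 also lie on both sides of 0.

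The remaining genes of the pathway, a list of 65 measured genes chosen with earlier results of these data known, had 10 higher (15.4%) and 4 lower (6.15%) in WT mice, against the members' 31.2% and 10.4%, a contrast that was not tested. Of all genes 9.72% were called higher and 7.98% lower in WT mice. In PXR-KO mice 1 gene of the list was higher (1.54%, beside 2.5% of all genes) and none lower (beside 2.14%). In the difference 10 were higher (15.4%, beside 7.39%) and 4 lower (6.15%, beside 6.22%). Among chromatin copying genes, the histone chaperone Asf1b rose by 2.51 on the log2 scale in WT mice (adjusted p = 6.5e-04, difference 2.77) and Chaf1b, a subunit of chromatin assembly factor 1, by 0.64 (adjusted p = 0.0045, difference 0.64). Among regulators, Cks1b, a small subunit of cyclin-dependent kinases, rose by 1.61 (adjusted p = 4.9e-05, difference 1.65), the E2F partner Tfdp1 by 0.58 (adjusted p = 0.0058, difference 0.52), and the transcription factor Myc by 1.68 (adjusted p = 0.030). The inhibitor Cdkn1c fell by 1.07 (adjusted p = 0.0083), the second E2F partner Tfdp2 by 0.68 (adjusted p = 0.0011) and the pocket protein Rbl2 by 0.48 (adjusted p = 0.020). Myc was the one gene of this list that rose in PXR-KO mice, by 0.79 (adjusted p = 0.0084), and its difference of 0.89 did not pass the test (adjusted p = 0.26). Timeless, a fork protection factor, rose by 1.07 in WT mice (adjusted p = 3.4e-04) with a difference of 1.73 (adjusted p = 3.7e-05), and Umps, which makes pyrimidines, rose by 0.69 (adjusted p = 5.7e-04).

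Markers of other cells of liver and blood, 52 genes in 8 lists, were followed in the same animals. In WT mice 3 rose and 11 fell, beside 9.72% of all genes called higher and 7.98% lower. In PXR-KO mice 4 rose and 2 fell, beside 2.5% and 2.14%. The median log2 ratio of the 10 macrophage and Kupffer cell markers ran from −0.58 to −0.10 over the treated WT animals and from 0.03 to 0.31 over the treated PXR-KO animals, against −0.30 to 0.18 and −0.32 to 0.47 in the vehicle animals. Of these 10 markers 3 fell in WT mice (Csf1r, Clec4f and Vsig4, by 0.58, 0.39 and 0.46), 2 rose in PXR-KO mice (Cd68 by 1.11 and Marco by 4.22), and 3 were lower in the difference, Marco at −4.11, Cd68 at −0.92 and Vsig4 at −0.69. The median of 7 T and NK cell markers ran from −0.36 to −0.08 in treated WT and from −0.48 to 0.32 in treated PXR-KO animals. Vehicle animals had −0.12 to 0.24 (WT) and −0.10 to 0.29 (PXR-KO). The median of 5 B and plasma cell markers ran from −0.77 to −0.18 and from −0.55 to −0.18, against −0.39 to 0.305 and −0.11 to 0.12 in vehicle animals. Within the genotypes, 1 B and plasma cell marker fell in WT mice and no other marker of these lists was called. The median of 6 sinusoidal endothelium markers ran from −0.46 to −0.30 and from −0.29 to −0.05, against −0.12 to 0.12 and −0.045 to 0.048 in vehicle animals. Of these markers 3 fell in WT mice, and in PXR-KO mice 1 rose (by 1.12) and 1 fell. The median of 5 erythroid precursor markers ran from −0.63 to −0.28 and from −0.17 to 0.26, against −0.11 to 0.14 and −0.23 to 0.13. Here 1 marker rose (by 1.37) and 2 fell in WT mice, and 1 fell in PXR-KO mice. The 7 neutrophil markers ran from −0.10 to 0.46 and from −0.07 to 0.37, with S100a8 higher in both genotypes (1.12 and 2.08). Of 7 stellate cell markers 2 fell in WT mice, and of 5 bile duct markers none was called. Of 7 hepatocyte markers 2 fell in WT mice, Hnf4a by 0.45 and G6pc by 0.98, and none was called in PXR-KO mice. Ratios give no level, so which of these markers were absent is unknown, and the part of any cell type in the responses of the replication genes was not tested.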

How the data were processed

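Liver RNA of 20 mice was hybridised to 1 array each. The deposited values are log10 ratios, made by the authors in Rosetta Resolver 7.2, of each animal to the averaged 5 vehicle animals of its genotype. They were multiplied by log2(10). Signal and depth are not kept in ratios, so the number of arrays limits the precision. Symbols came from the GEO platform annotation (34945 probe sets with 1 gene). For each gene the probe set without an _s_ or _x_ mark, then with the smallest pooled vehicle SD, was used. limma 3.58.1 in R 4.3.3 was fitted to all 45037 probe sets, within each genotype and over all animals for the difference of responses, with Benjamini-Hochberg adjustment and a threshold of 0.05. The fits were tested on simulated data. Members, role groups and lists were chosen with earlier results of these data known. Named genes were up to 4 called members per role by smallest adjusted p, plus Ccnd1, Pcna and E2f1. The animals are separate mice, and same replicate numbers did not pair them. Alternatives were a replicate block, trend and robust variances, array weights, quantile normalization, a common median, 1 fit for all groups, a minimum fold change, other probe set rules, and animals left out.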

Additional observations from a re-analysis of the deposited data

Results flagged for a closer look

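In 2 of 72 groups of 5 animals, over the named members, 1 animal lay far from the other 4, and chance gives about 1 such group in 20. WT vehicle replicate 2 had a log2 ratio of 0.222 for Ccnd1, and its gap to the next animal was 0.748 of the range. WT vehicle replicate 4 had −0.984 for Mcm2, with a gap of 0.750 of the range. Without that animal Mcm2 was still called in WT mice.

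The responses of the 2 genotypes differed by limma in 9 members, with WT minus PXR-KO values on the log2 scale of 0.449 for Ccnd3, 1.252 for Ccna2, 1.110 for E2f3, 1.486 for E2f6, 1.618 for Mcm2, 0.795 for Mcm4, 1.249 for Mcm5, 1.852 for Mcm6 and 1.504 for Uhrf1. For Ccna2 the sign itself differed, with all 5 treated WT animals above and all 5 treated PXR-KO animals below their vehicle groups with the probe set used. The PXR-KO fall of Ccna2 was not called with its other probe set or with quantile normalization. For Ccnd3 the difference lay in the PXR-KO fall, and another probe set of that gene gave the opposite sign.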

How the results depend on the processing

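The 15 WT calls that held with each animal left out included every Mcm ring call, and 7 members (Ccna2, E2f3, E2f6, Gmnn, Mcm2, Mcm6 and Uhrf1) also kept their WT call under all 10 other settings. For the difference, Ccna2, E2f3 and E2f6 did so, and for PXR-KO mice none of the 5 did. Of the main 20, 5 and 9 calls, the counts with each animal left out were 15 to 21 in WT, 1 to 5 in PXR-KO mice and 8 to 11 for the difference. With quantile normalization, which gives treated and vehicle arrays the same spread by construction, they were 8, 1 and 3. Without the 4 vehicle animals they were 13, 0 and 4. Under the replicate block they were 13 in WT, 0 in PXR-KO mice and 7 for the difference. Trend and robust variances gave 0 in PXR-KO mice (4 higher and 8 lower at an unadjusted p under 0.05, and 3 and 6 with the replicate block). None of these counts under other settings has the share of all genes beside it. Same-numbered animals did not deviate together (correlations of −0.242 to 0.065, and 0 of 5 numbers in each genotype correlated best with its own), so the numbers do not pair the animals. Among the values of single named or called members under settings other than leaving out 1 animal, 517 stayed on the same side of the threshold (17 of them with a changed sign, none called), 74 lost the call and 5 gained one, and 5 turned against or out of a call, in Rbl1 and Ccnd3. Averaged over its probe sets, Rbl1 had −0.006 in WT mice (adjusted p = 0.984). Ccnd3 had 0.156 in PXR-KO mice and −0.300 for the difference when averaged, and 0.901 and −1.455 with its largest-change probe set. With 5 arrays a group and no signal values, low expression and background cannot be weighed.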

Other observations

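Genes of the next phases, G2 and mitosis, were followed in a list of 25 measured genes chosen with earlier results known. In WT mice 9 rose (36%, beside 9.72% of all genes) and 1 fell (4%, beside 7.98%). In PXR-KO mice 0 were called by limma, beside 2.5% of all genes higher and 2.14% lower. For the difference 8 were higher (32%, beside 7.39%) and 1 lower (4%, beside 6.22%). Cdk1, the mitotic kinase, rose by 1.67 on the log2 scale in WT mice (adjusted p = 0.019), its partner Ccnb2 by 1.95 (adjusted p = 0.0028), Birc5, a subunit of the chromosomal passenger complex, by 1.77 (adjusted p = 0.0030), and Cdc20, an activator of the anaphase-promoting complex, by 1.09 (adjusted p = 2.2e-04). Mki67, the common marker of cycling cells, rose by 1.85 in WT mice (adjusted p = 0.028), had −1.72 in PXR-KO mice (adjusted p = 0.057), and its difference of 3.57 was the largest of the list (adjusted p = 0.0020). Ccnf, cyclin F, fell by 1.09 in WT mice (adjusted p = 0.0088). No cause of these values was tested.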
